A study of Mus musculus with 1627 samples.

Results

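Chemokines are small secreted proteins that draw leukocytes to a site through receptors coupled to G proteins, and they are sorted into CC, CXC and XC groups by the spacing of their first cysteines. Ccl3, Ccl4 and Ccl5 attract T cells, monocytes and natural killer cells, while Ccl1 acts through Ccr8. Cxcl2 and Cxcl3 draw neutrophils through Cxcr2, and Xcl1 recruits the dendritic cells that carry Xcr1. Regulatory T cells (Tregs), which restrain other immune cells through the transcription factor Foxp3, also gather in injured skeletal muscle and take part in its repair. The genes described here are 7 chemokine ligands, Ccl3, Ccl4, Ccl5, Ccl1, Cxcl2, Cxcl3 and Xcl1, of 23725 genes in the count table. They were chosen from their measured counts in these same cells, so their levels are a description and carry no test.

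The cells came from male B6 Foxp3-Ires-Gfp mice aged 8 months, a strain that marks Foxp3-expressing cells with green fluorescent protein, and were taken 4 days after cardiotoxin, a toxin that injures muscle. Live cells that carried CD4, the T cell receptor and the green reporter were obtained by sorting, from muscle digested with collagenase and dispase and from mechanically dissociated spleen. The spleens belong to injured mice too, so no uninjured tissue stands beside them, and the way the tissue was taken apart goes with the tissue and cannot be told apart from it. The cells form 3 libraries made by inDrops, which captures single cells in droplets and counts unique molecular identifiers (UMIs) near the poly(A) end of transcripts: 1368 of the 1627 cells are from muscle, with 41.4% of all cells in muscle library 1, 42.7% in muscle library 2 and 15.9% in spleen. Since no animal is named in the labels, a tissue is taken as 1 sample, no p-value is given, and every interval below is a 95% interval that covers counting error alone.

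The libraries held 1533277 UMIs (muscle 1), 1916496 UMIs (muscle 2) and 982570 UMIs (spleen), with medians of 1976, 2487.5 and 3541 UMIs per cell in that order, so a muscle cell was read less deeply than a spleen cell. Levels are given as CPM, the count per 1000000 UMIs of the library, on which 1 UMI is worth 0.652 CPM in muscle library 1, 0.522 CPM in muscle library 2 and 1.02 CPM in spleen. Foxp3 stood at 554.4, 551.5 and 368.4 CPM in that order. Lists of markers for macrophages, neutrophils, CD8 and natural killer cells, dendritic cells, B cells and mast cells summed to between 1.02 CPM (mast cells, spleen) and 391.9 CPM (neutrophils, muscle library 2), and Adgre1, S100a8, Retnlg, Clec9a, Ms4a1, Cpa3 and Mcpt4 had 0 UMIs in all 3 libraries. The 2 muscle libraries shared 11 cell barcodes, muscle library 1 and spleen shared 1, and muscle library 2 and spleen shared 0. Of near-identical pairs of cells there were 3 in muscle library 1, 0 in muscle library 2 and 2 in spleen, and their cells held no UMI of the 7 genes. Lyz2, a macrophage gene that Tregs should lack, served as a gauge of free RNA. It had 3, 6 and 0 UMIs, which put 1 UMI in 0.445% of cells of muscle library 1 and in 0.865% of muscle library 2. Its 0 spleen cells allow a share of cells with a UMI of up to 1.41%. The haemoglobin gene Hbb-bs was more widespread, with 10, 21 and 5 UMIs in 10, 10 and 3 cells. Neither gene measures the free RNA of the 7 genes themselves, which was not tested.

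Of the 7 genes, RefSeq windows upstream of the start site were at hand for 5 (build GRCm38.p6), with none for Ccl4 or Ccl5. The neighbours Cxcl2 and Cxcl3, a pair of related neutrophil attractants whose transcripts are described together below, are shown because both windows hold the letters GGAATTTCC, a form of the site bound by NF-kB, the transcription factor family of inflammatory genes. The windows are chr5:90903649-90903898 for Cxcl2 and chr5:90785851-90786100 for Cxcl3, both on the plus strand, 5′ to 3′, with the match in capitals.
Cxcl2: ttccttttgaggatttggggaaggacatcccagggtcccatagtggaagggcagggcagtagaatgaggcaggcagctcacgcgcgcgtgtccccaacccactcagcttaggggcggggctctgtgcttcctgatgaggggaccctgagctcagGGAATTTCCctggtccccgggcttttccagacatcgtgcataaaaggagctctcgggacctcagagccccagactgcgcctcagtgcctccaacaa
Cxcl3: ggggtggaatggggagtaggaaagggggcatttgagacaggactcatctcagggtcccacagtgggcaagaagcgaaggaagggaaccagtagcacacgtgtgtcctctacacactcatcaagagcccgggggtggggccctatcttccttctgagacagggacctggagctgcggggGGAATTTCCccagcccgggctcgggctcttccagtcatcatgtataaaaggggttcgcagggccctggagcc
The match lies 96 to 88 bases before the RefSeq start in Cxcl2 and 72 to 64 bases before it in Cxcl3. The gene spans given below come from another annotation. The Cxcl2 window ends at 90903898, inside the span that starts at 90903871, so these distances depend on the start used. Searched on both strands, GGAATTTCC was found in 94 of 32817 windows of the same length (0.286%), and in these 2 of the 5 windows at hand. Its letters were picked after the 2 sequences had been seen, so the match is a description. The TATA box letters TATAAA stand 30 to 25 bases before the start of Cxcl3, and in 12.4% of all windows. The letters TGANTCA (AP-1, in 6.75% of all windows) and TTTCNNTTT (part of the interferon-stimulated response element, in 9.37%) had no match in the 5 windows. GGAATTTCC and TATAAA share no bases in Cxcl3.

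Ccl5 was the gene of the group with most UMIs in every library. Its product binds Ccr1 and Ccr3, among other receptors, and is a late product of activated T cells. Its level was 189.8 CPM (168.6 to 212.9) in muscle library 1, 151.3 CPM (134.4 to 169.8) in muscle library 2 and 119.1 CPM (98.5 to 142.7) in spleen. It was highest in muscle library 1 and lowest in spleen, and the intervals of muscle library 2 and spleen overlap. Over spleen, Ccl5 stood at 1.59-fold (1.28 to 1.99) in muscle library 1, with 1.27-fold (1.02 to 1.59) in muscle library 2, while muscle library 1 over muscle library 2 gave 1.3-fold (1.06 to 1.48). The gap between the muscle libraries was thus about the size of the gap between muscle library 2 and spleen. UMIs of one cell are counted as independent in these intervals, so they are too narrow for genes held by few cells. The gene lies on the minus strand at chr11:83525778-83530518 (GRCm38).

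The cells that held Ccl5 were a minority in each library. Counting every cell as it was read, 82 cells of muscle library 1 (12.2%, 9.79 to 14.9), 73 cells of muscle library 2 (10.5%, 8.34 to 13) and 18 cells of spleen (6.95%, 4.17 to 10.8) had at least 1 UMI. With each cell thinned to 1000 UMIs, which removes the difference in depth and leaves out 26 cells of muscle library 1, 7 of muscle library 2 and 0 of spleen, the shares were 9.41% (7.28 to 11.9), 6.99% (5.20 to 9.16) and 5.02% (2.70 to 8.43) in the same order. The share was higher in muscle library 1 than in spleen both ways, with intervals that overlap both before and after thinning. All these shares are above the Lyz2 share, which after thinning was 0%, 0.291% and 0%. Free RNA of Ccl5 itself was not measured.

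A positive cell in spleen held more Ccl5 UMIs than one in muscle. The mean per positive cell was 3.55 in muscle library 1, 3.97 in muscle library 2 and 6.5 in spleen, the median 2, 3 and 5.5, and the maximum 22, 26 and 21. The positive spleen cells were also read more deeply, with a median of 1955 UMIs in all in muscle library 1, 2788 in muscle library 2 and 3866.5 in spleen. After thinning, the means were 2.34, 1.88 and 2.31, so spleen no longer stood above muscle library 1. Of the positive cells, 27, 26 and 4 held a single Ccl5 UMI and 7, 4 and 4 held at least 10. In the 10 highest cells lay 43% of the Ccl5 UMIs of muscle library 1, 42.8% of those of muscle library 2 and 87.2% of those of spleen, which has 18 positive cells in all.

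**Figure D1:**
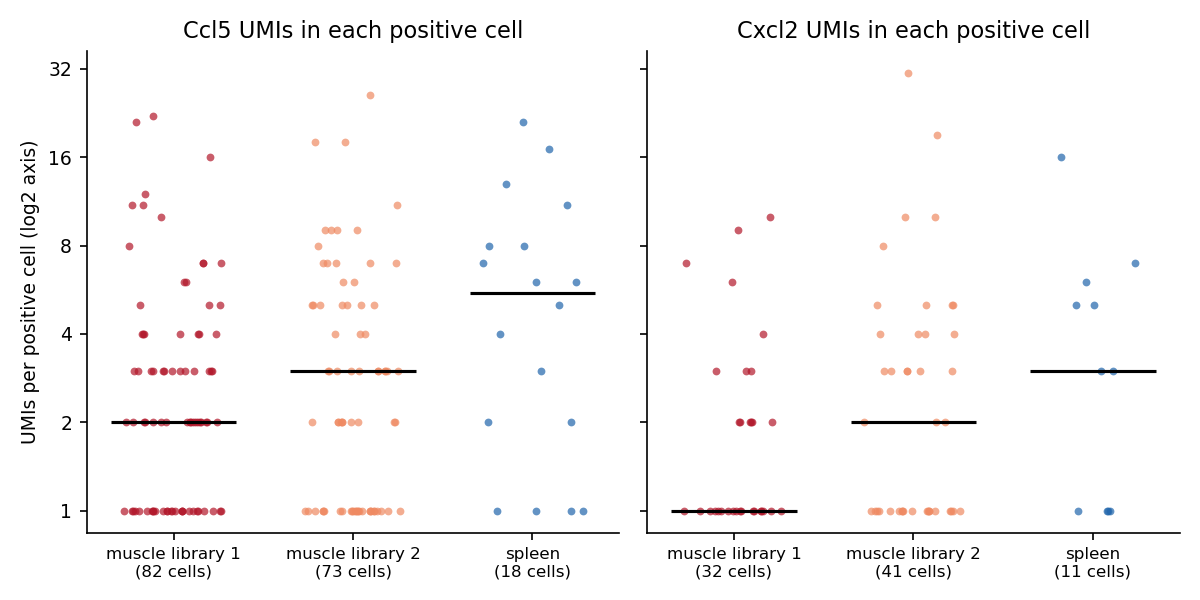
UMIs of Ccl5 (left) and Cxcl2 (right) in each positive cell on a log2 axis, by library; each point is 1 cell, spread sideways at random, and the bar is the median. Ccl5 medians are 2, 3 and 5.5, and most cells hold few UMIs while single cells reach 26 for Ccl5 and 31 for Cxcl2.

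Cxcl2 was second. Its level was 48.9 CPM (38.5 to 61.3) in muscle library 1, 81.9 CPM (69.6 to 95.8) in muscle library 2 and 49.9 CPM (36.9 to 65.9) in spleen. Muscle library 1 and spleen were level and muscle library 2 stood above both. Over spleen the level was 0.98-fold (0.68 to 1.44) in muscle library 1 and 1.64-fold (1.19 to 2.31) in muscle library 2, and muscle library 1 over muscle library 2 gave 0.597-fold (0.447 to 0.791), so the 2 muscle libraries differed from each other as much as muscle library 2 did from spleen. Cxcl2 was present in 32 cells of muscle library 1 (4.75%, 3.27 to 6.64), 41 of muscle library 2 (5.91%, 4.27 to 7.93) and 11 of spleen (4.25%, 2.14 to 7.47), and in 2.93%, 3.35% and 1.93% of cells after thinning. The intervals of these shares overlap among all 3 libraries.

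Most Cxcl2-positive cells held a few UMIs and 1 cell of muscle library 2 held 31. The mean per positive cell was 2.34, 3.83 and 4.46 UMIs in muscle library 1, muscle library 2 and spleen, the median 1, 2 and 3, and the maximum 10, 31 and 16. A single UMI was all that 18 of 32, 19 of 41 and 4 of 11 positive cells had. The cell with 31 UMIs holds 19.8% of the library's Cxcl2, and the highest spleen cell 32.7% of that of spleen. The gene lies on the plus strand at chr5:90903871-90905938.

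**Figure D2:**
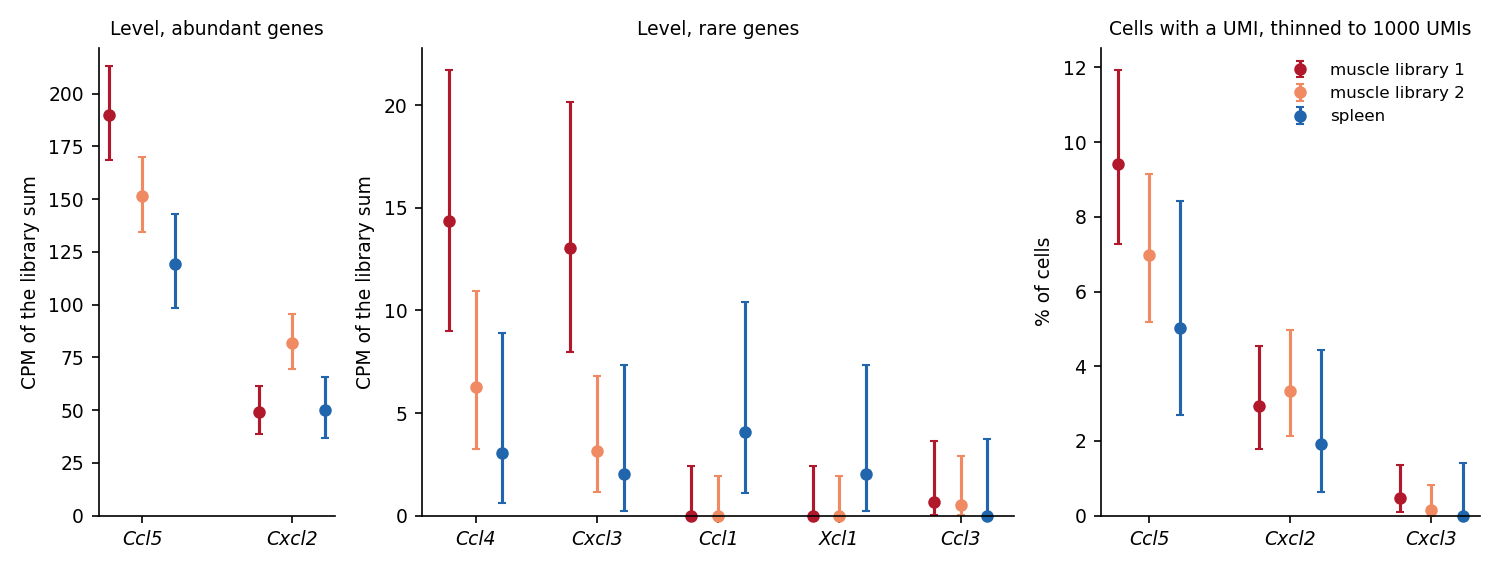
Levels of the 7 genes in CPM of the library sum (left and middle panels, with exact Poisson intervals) and the share of cells with a UMI after thinning to 1000 UMIs (right panel, exact binomial intervals), muscle library 1, muscle library 2 and spleen from left to right. Ccl5 stands at 189.8, 151.3 and 119.1 CPM in the 3 libraries, Cxcl2 is highest in muscle library 2, and the other 5 genes stay under 15 CPM.

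Cxcl3 was rarer and lay mostly in cells that held Cxcl2. It had 20 UMIs in 7 cells of muscle library 1, 6 UMIs in 5 cells of muscle library 2 and 2 UMIs in 1 cell of spleen. Of these 13 cells 10 also held Cxcl2, with 5 of 7 in muscle library 1, 4 of 5 in muscle library 2 and 1 of 1 in spleen. Among cells without Cxcl3, Cxcl2 was present in 4.05%, 5.37% and 3.88%. Thinning left 4 Cxcl3 cells, of which 3 held Cxcl2. The Cxcl3 cells had more UMIs in all, with medians of 3023 and 4596 in the muscle libraries against 1976 and 2484 in cells without Cxcl3. In muscle library 1, 15 of the 20 UMIs came from 3 cells that carry the same first part of the barcode and are all the cells there with it; their profiles correlated at 0.369 to 0.419 (pairs of cells in that library have a median of 0.337), and the part of this shared barcode in the result was not tested. The gene lies on the plus strand at chr5:90786103-90789600. Coding transcripts of Cxcl2 and Cxcl3 share a stretch of 110 identical bases, and 16 within the last 500 bases, where the assay reads. A longer stretch is in transcripts that retain an intron, 1849 and 3285 bases from the poly(A) end.

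Ccl4 and Ccl3, neighbours on chromosome 11 that both attract monocytes and T cells, were close to absent. All 22 Ccl4 UMIs of muscle library 1 came from 1 cell, which had 1732 UMIs in all, 12 of Ikzf2, 8 of Ctla4 and 5 of Il2ra, and no Ccl5 or Ccl3. In muscle library 2, 12 UMIs lay in 3 cells with 7, 3 and 2 UMIs, and in spleen 3 UMIs lay in 1 cell. Ccl3 had 1 UMI in each muscle library and 0 in spleen, and its cell in muscle library 2 was the one with 3 Ccl4 UMIs. Ccl3 was thus at or under the limit of 3 counts in every library, as in the Lyz2 range. Their spans are chr11:83662584-83664683 on the plus strand for Ccl4 and chr11:83647844-83649355 on the minus strand for Ccl3.

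Ccl1 and Xcl1 had 0 UMIs in both muscle libraries. By the exact interval, 0 allows shares of cells with a UMI of up to 0.546% (muscle library 1) and 0.530% (muscle library 2), which at this depth sets no limit on cells that express the genes. Ccl1 had 4 UMIs in 1 spleen cell, which also held 5 of Foxp3 and 12 of Cxcl10. Xcl1 had 2 UMIs in 2 spleen cells, too few to set above free RNA, and its locus overlaps Gm20743 on the opposite strand; the strand setting of the counting is not given in the sources used here. Ccl1 is annotated on the minus strand at chr11:82176657-82305690, a span that reaches past its RefSeq start and takes in the window upstream of it (chr11:82179813-82180062). Xcl1 lies on the minus strand at chr1:164931644-164935527.

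One spleen cell held 4 of the 7 genes. With 4523 UMIs in all, it had 17 of Ccl5, 3 of Ccl4, 3 of Cxcl2 and 1 of Xcl1, together with 10 of Gzmb, 8 of Gzma and 2 of Nkg7, genes of cytotoxic granules, and 1 of Foxp3, 8 of Ctla4 and 3 of Cd4. Without this cell, spleen had 0 UMIs of Ccl4. All 23 cells that held a gene among Ccl4, Ccl3, Ccl1, Cxcl3 and Xcl1, counted per gene, had a UMI of at least 1 of 7 Treg markers, and 10 had Foxp3 itself. Most cells hold such a marker: it was in 98.8%, 97.6% and 91.7% of thinned Ccl5-negative cells of muscle library 1, muscle library 2 and spleen. Foxp3 was in 56.3%, 56.2% and 46.1% of Ccl5-negative cells before thinning.

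Ccl5 and Cxcl2 lay in fewer cells than most genes with about as many UMIs. Set against genes with about as many UMIs in the same library, Ccl5 was present in 50% as many cells as the median such gene in muscle library 1, 52.5% in muscle library 2 and 39.1% in spleen. For Cxcl2 the values were 62.7%, 48.8% and 50%, with 32, 41 and 11 cells for Cxcl2, against 51, 84 and 22 for the median gene. The rarer genes were less even. Ccl4 lay in 1, 3 and 1 cells, where the median such gene lay in 17, 9 and 3. Cxcl3 lay in 7, 5 and 1 cells, where the median such gene lay in 16, 5 and 2, so in muscle library 2 it was spread as its like. This is a description of the libraries, since the choice of the genes drew on their counts.

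**Figure D3:**
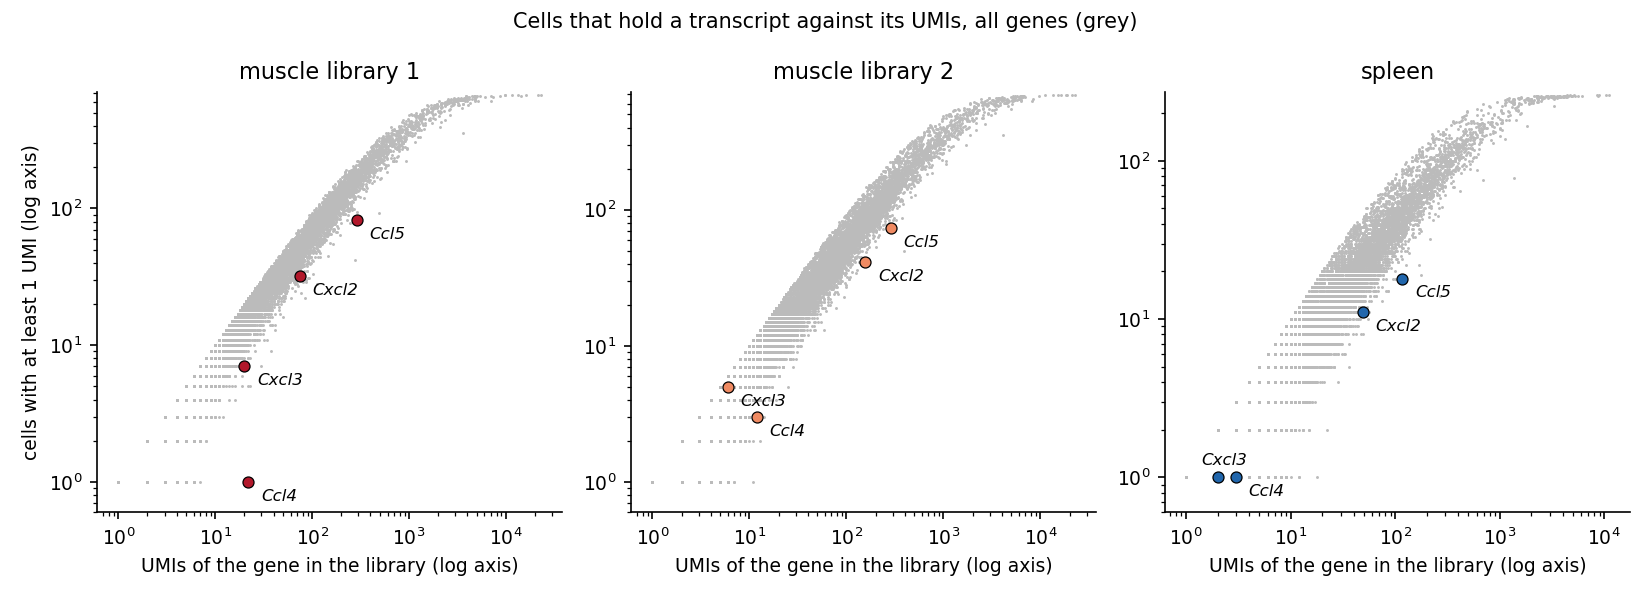
Number of cells with at least 1 UMI against the UMIs of the gene in the library, both on log axes, for all genes (grey) and for Ccl5, Cxcl2, Ccl4 and Cxcl3 (coloured), in muscle library 1, muscle library 2 and spleen. Ccl5 and Cxcl2 lie at the lower edge of the grey band in all 3 libraries, and Ccl4 far under it in muscle library 1.

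Set against all genes, no member passed the rule for a difference between muscle and spleen, which asks for at least 2-fold in the same direction in both muscle libraries and at least 50 UMIs over the 3 libraries. Of 7617 genes, 7.47% were higher in muscle and 3.45% lower, with median log2 folds of 0.06 and 0.08 over all genes tested. Ccl5 and Cxcl2 passed the minimum and were neither higher nor lower, and the other 5 had too few UMIs. With totals that leave out ribosomal protein genes the median log2 fold shifted by -0.162 and -0.155 in the 2 muscle libraries in that order, and 5.63% of genes were higher and 5.36% lower, so higher genes made up 51.3% of the calls in place of 68.4%; both members stayed uncalled. With a minimum of 10 UMIs Ccl4 counted as higher (4.70-fold, 1.41 to 24.5, and 2.05-fold, 0.553 to 11.3, from 22, 12 and 3 UMIs), a value that rests on 5 cells.

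Any of the 7 genes was present in 16.6% of cells of muscle library 1, 16.3% of muscle library 2 and 10.4% of spleen, where these were 27 cells. After thinning the shares were 12.2% (9.77 to 15), 10.3% (8.16 to 12.9) and 6.95% (4.17 to 10.8). Most of these cells held 1 gene of the group: 9, 10 and 4 cells held 2 of them, and 1, 0 and 1 held at least 3. Ccl5 made up 71.2%, 62.2% and 66.1% of the UMIs of the 7, counted near the poly(A) end, where gene length does not enter. Ccl5 and Cxcl2 met in 12 cells before thinning. Cxcl2 was then present in 6.10% of Ccl5-positive and 4.56% of Ccl5-negative cells of muscle library 1 and in 4.11% and 6.12% in muscle library 2. In spleen it was in 4 of 18 Ccl5-positive cells (22.2%, 6.41 to 47.6) and in 2.90% (1.18 to 5.89) of Ccl5-negative cells, with intervals that do not overlap. Thinned, Cxcl2 was present in 3 of 61 Ccl5-positive cells of muscle library 1 (4.92%) against 2.73% of the others, in 1 of 48 (2.08%) against 3.44% in muscle library 2, and in 2 of 13 (15.4%) against 1.22% in spleen, with thinned intervals that overlap in every library.

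Of a list of 41 chemokine ligand genes 37 had a row, 25 had at least 1 UMI and 12 had 0. The 7 genes made up 1052 of the 2234 UMIs of the list. Cxcl10, an interferon-induced ligand of Cxcr3 and the third gene of the list with 50 or more UMIs, was in 92 cells of muscle library 1, 86 of muscle library 2 and 22 of spleen, with a mean of 5.28, 4.40 and 7.68 UMIs in a positive cell, each above that of Ccl5. It stood at 1.84-fold (1.54 to 2.21) and 1.15-fold (0.954 to 1.38) over spleen. The genes next in UMIs were Ccl27a, Cxcl11, Ccl9, Cxcl1 and Ccl25, with at most 12 UMIs in a library. Ccl25, a ligand of Ccr9, had 0 UMIs in muscle library 1 and 1 in muscle library 2, against 12 UMIs in 3 spleen cells. Cxcl1, which binds Cxcr2 as Cxcl2 and Cxcl3 do, had 1, 6 and 9 UMIs in 1, 1 and 2 cells.

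Receptors for the ligands were present in the same libraries. Of the list, 7 receptors had enough UMIs to be tested. Those that passed the rule as higher in muscle included Ccr1, Ccr3, Ccr4 and Ccr8, and 0 receptors passed as lower. Over all genes tested, 7.47% were higher and 3.45% lower. Ccr3, a receptor for Ccl5, stood at 130.4, 143.5 and 30.5 CPM in muscle library 1, muscle library 2 and spleen, at 4.27-fold and 4.70-fold. Ccr8, the receptor for Ccl1, had 51, 48 and 9 UMIs, at 3.63-fold and 2.73-fold. Cxcr2, the receptor for Cxcl2 and Cxcl3, was at 240, 352.7 and 292.1 CPM, or 0.82-fold and 1.21-fold, and Xcr1 had 44, 74 and 43 UMIs at 0.66-fold and 0.88-fold. Cxcr2 is also on the list of neutrophil markers and Xcr1 on that of dendritic cell markers. Whether the UMIs of Cxcr2 and Xcr1 come from Tregs was not tested. The decoy receptor Ackr1 had 2 UMIs in muscle library 1 and 0 in the other two, and Ackr2 and Gpr75 had 0 in all.

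Cells with and without Ccl5 were set against each other within each library, with Ccl5 left out of the totals. Of 9060 genes with at least 20 UMIs over the muscle libraries, 1.1% were higher and 1.9% lower by 2-fold in both. Foxp3 was present in 58.5% of Ccl5-positive and 56.3% of Ccl5-negative cells of muscle library 1, in 54.8% and 56.2% in muscle library 2 and in 61.1% and 46.1% in spleen. Of thinned Ccl5-positive cells, 100%, 98.6% and 100% held a Treg marker in muscle library 1, muscle library 2 and spleen. The shares of thinned Ccl5-negative cells were close in muscle, at 98.8% and 97.6%, with 91.7% in spleen. The summed markers of CD8 and natural killer cells stood at 0.81-fold and 1.30-fold in the muscle libraries and at 4.18-fold in spleen, where the positive cells held 30 UMIs and the negative cells 87. Of those 30, the spleen cell with 4 of the 7 genes held 8 of Gzma and 2 of Nkg7. After thinning, 2 of 18 Ccl5-positive spleen cells held such a marker, against 7.47% of the negative ones. The part of these markers in the spleen values below was not tested.

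Cxcr3, Il10 and Gzmb, picked after their values were seen, were each present in a larger share of Ccl5-positive than of Ccl5-negative spleen cells. Cxcr3, a receptor that marks type 1 T cells, was present in 7 of 18 Ccl5-positive spleen cells and in 10 Ccl5-negative ones (38.9% and 4.15%), with 21 and 14 UMIs (18.2-fold, 8.83 to 38.7). Of those 21 UMIs, 8 lay in 1 cell, and after thinning the Cxcr3 shares in spleen were 16.7% and 2.075%. In muscle Cxcr3 was present in 17.1% and 16.2% of cells in library 1 and 23.3% and 16.6% in library 2. Il10, an anti-inflammatory cytokine of Tregs, was in 4 of 18 Ccl5-positive spleen cells (22.2%, 6.41 to 47.6) and 4.56% (2.30 to 8.02) of Ccl5-negative ones. These intervals overlap. By summed CPM Il10 stood at 7.70-fold (4.82 to 12.1) in spleen, from 33 UMIs in positive cells, of which 12 lay in 1 cell. In muscle it stood at 0.81-fold and 0.58-fold. After thinning the spleen shares of Il10 were 16.7% and 2.9%. Gzmb, granzyme B, was present in 63.4% of Ccl5-positive and 51% of Ccl5-negative cells of muscle library 1, in 71.2% and 48.8% in muscle library 2 and in 16.7% and 4.56% in spleen. After thinning its shares were 54.9% and 47.3%, 62.5% and 40.2%, and 16.7% and 4.15%. The order was the same in all 3 libraries, with intervals that overlap in muscle library 1 and spleen, whereas the ratio of summed CPM was 0.96, 2.11 and 3.58. Whether spleen and muscle differ in these 3 genes was not tested.

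Of the resting lymphoid genes, 2 of 8 tested were lower in Ccl5-positive cells of both muscle libraries and 0 higher, with a median log2 ratio of -0.57 against -0.03 over all genes tested. They were Ccr7, the lymph node homing receptor, with 3 UMIs in the positive cells of each muscle library (ratios of 0.30, 0.0595 to 0.899, and 0.23, 0.0461 to 0.683), and Bcl2, a survival gene. Bcl2 had 1 UMI in the positive cells of each, under the limit of 3 counts, and the intervals of its ratios (0.38, 0.00919 to 2.43, and 0.39, 0.0095 to 2.46) include no difference. With cells thinned to 1000 UMIs, or with Ccl5-positive cells set at 2 or more UMIs, 1 of the genes was lower. Myc, a growth regulator from the list of activation genes, was also lower, with 7 and 5 UMIs in positive cells (0.34 and 0.20). Of 18 activation genes tested, Myc was the 1 lower and 0 were higher. None of 14 NF-kB genes, 12 cytokines, 9 cytotoxic granule genes, 16 tissue Treg genes, 7 type 1 genes, 11 interferon response genes or 11 cell cycle genes passed in either direction.

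By the rule on the size of the smaller ratio, 2661 genes could be ranked for Ccl5 and 14 reached 2-fold. The first 5 were Irak4, a kinase of Toll-like and interleukin 1 receptor signalling, Trf, the iron carrier transferrin, Pdzd11, Dalrd3 and Tmbim4. Irak4 stood at 4.60-fold and 3.03-fold from 12 and 15 UMIs in positive cells, and Trf at 6.89-fold and 3.01-fold from 18 and 13 UMIs. Tmbim4 had the most UMIs in positive cells, 33 and 40, at 2.47-fold and 2.76-fold, and it stood at 2.43-fold (1.15 to 4.69) in spleen. The other 4 had 0 or 1 UMI in positive spleen cells.

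Cells with and without Cxcl2 were compared in the same way. Of the 9060 genes, 2.37% were higher and 1.88% lower in Cxcl2-positive than in Cxcl2-negative cells of both muscle libraries. The Cxcl2-positive cells are fewer than the Ccl5-positive ones, so these shares were not compared with those for Ccl5. Foxp3 was present in 53.1% of positive and 56.7% of negative cells in muscle library 1, in 70.7% and 55.1% in muscle library 2 and in 72.7% and 46% in spleen, and a Treg marker in 96.7%, 100% and 100% of thinned positive cells. Macrophage markers summed to 33 CPM in positive and 18 CPM in negative cells of muscle library 1 (1.83-fold), to 28.3 and 22.5 CPM in muscle library 2 (1.26-fold) and to 193.8 and 53.4 CPM in spleen (3.63-fold), from 3, 4 and 9 UMIs in positive cells, where 9, 10 and 8 of the 11 markers were at 0. T cell markers stood at 0.72-fold, 0.91-fold and 1.20-fold and markers of CD8 and natural killer cells at 0.62-fold, 0.38-fold and 5.76-fold, and the part of all these in the values below was not tested. Positive cells had more UMIs in all in muscle library 2, with a median of 3135 against 2471, and about the same in muscle library 1 (2064.5 against 1972) and spleen (3593 against 3512.5).

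Areg, amphiregulin, an epidermal growth factor family ligand by which Tregs are known to aid muscle repair, was present more often in Cxcl2-positive cells in all 3 libraries. It was in 20 of 32 Cxcl2-positive cells of muscle library 1 (62.5%, 43.7 to 78.9) and in 28.5% (25 to 32.2) of Cxcl2-negative cells. In muscle library 2 it was in 23 of 41 (56.1%, 39.8 to 71.5) and 27% (23.6 to 30.5), and in spleen in 5 of 11 (45.5%, 16.8 to 76.6) and 14.9% (10.7 to 20). The intervals do not overlap within either muscle library and overlap in spleen. Thinned, the shares were 50% and 20.2%, 22% and 17.3%, and 45.5% and 6.05%, so muscle library 2 kept a small part of the gap. By summed CPM the ratio was 2.01 (1.53 to 2.61), 1.69 (1.30 to 2.17) and 12.8 (9.70 to 16.8), which misses the 2-fold rule in muscle library 2; of 90 Areg UMIs in positive spleen cells, 46 lay in 1 cell.

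Genes switched on early by the T cell receptor gave a less even picture. Nr4a1, which follows receptor signal strength, was present in 28 of 32 Cxcl2-positive cells of muscle library 1 (87.5%) and 70.1% of Cxcl2-negative ones, in 35 of 41 (85.4%) and 70.9% in muscle library 2, and in 11 of 11 (100%) and 51.2% in spleen. Its summed CPM ratio was 1.11, 0.96 and 3.90, so in muscle library 2 the higher share came without a higher sum. After thinning the shares in positive and negative cells were 60% and 57% in muscle library 1, with 63.4% and 56.7% in muscle library 2 and 81.8% and 33.5% in spleen. Cd83, an activation marker, stood at 1.75-fold (1.19 to 2.51), 1.74-fold (1.31 to 2.28) and 7.06-fold (5.10 to 9.66), with 32 of its 55 UMIs in positive spleen cells in 1 cell. In muscle library 2, 24 of its 62 UMIs in positive cells lay in 1 cell. Cd83 was in 31.3% of positive and 17% of negative cells of muscle library 1, and in 24.4% and 17.9% in muscle library 2. The intervals of its shares overlap within each library. Areg, Nr4a1 and Cd83 were named after their values were seen. Of the 18 activation genes, 14 NF-kB genes and 12 cytokines tested, 0 were higher and 0 lower in Cxcl2-positive muscle cells.

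**Figure D4:**
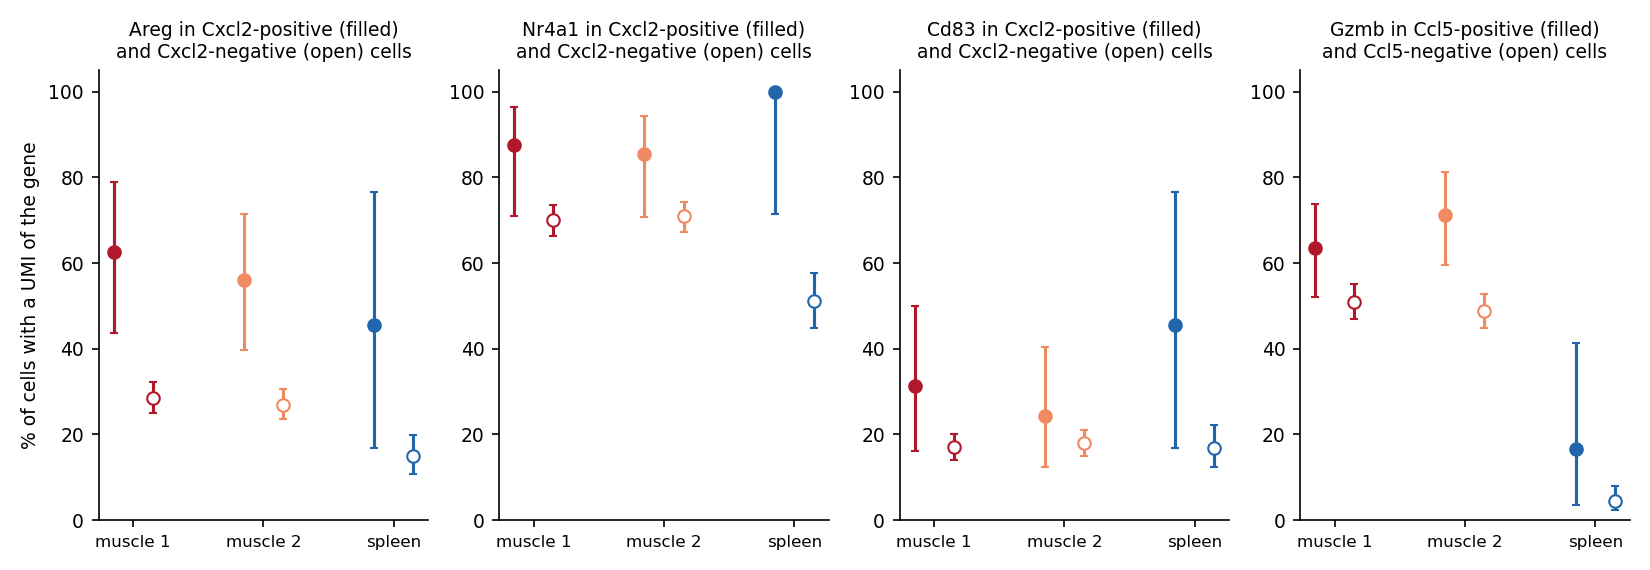
Share of cells with a UMI of Areg, Nr4a1 or Cd83 among Cxcl2-positive (filled) and Cxcl2-negative (open) cells, and of Gzmb among Ccl5-positive and Ccl5-negative cells, per library, not thinned, with exact binomial intervals. Areg is in 62.5%, 56.1% and 45.5% of Cxcl2-positive cells, against 28.5%, 27% and 14.9% of Cxcl2-negative cells.

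Of 11 interferon response genes tested, 7 were lower in Cxcl2-positive cells of both muscle libraries, 0 were higher and 4 passed in neither direction, with a median log2 ratio of -1.41 against 0.06 over all genes tested. The count of 7 became 3 in thinned cells, 3 without cells above 3 times their library's median of UMIs and 2 with positive cells set at 2 or more UMIs of Cxcl2, where 0.684%, 1.56% and 0.883% of all genes were lower. The 7 were Ifit1, Ifit2, Ifit3, Isg15, Irf7, Rsad2 and Usp18. Ifit3 had 1 UMI in the positive cells of muscle library 1 and 2 in those of muscle library 2, at 0.10 (0.00264 to 0.593) and 0.17 (0.02 to 0.612) of the level in negative cells. Isg15, the one with most UMIs, stood at 131.8 CPM in positive and 281.5 CPM in negative cells of muscle library 1, and at 92 and 221.4 CPM in muscle library 2 (0.47 and 0.42). The list summed to 769 CPM in positive and 1510 CPM in negative cells of muscle library 1 (0.51), to 665.4 and 1257 CPM in muscle library 2 (0.53), and to 689.2 and 603.6 CPM in spleen (1.14). The interferon-induced Cxcl10 was in 5 of 32 Cxcl2-positive cells (15.6%) and 13.6% of Cxcl2-negative cells of muscle library 1. In muscle library 2 it was in 10 of 41 (24.4%) and 11.6%, and in spleen in 0 of 11 and 8.87%. With both genes counted after thinning, it was in 1 of 19 and 9.22% in muscle library 1. In muscle library 2 these were 3 of 23 and 8.28%. The intervals of these Cxcl10 shares overlap within each library.

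A part of the negative cells held much of the list's UMIs. Cells with at least 10 of them were 1 of 32 Cxcl2-positive cells (3.13%) and 10.1% of Cxcl2-negative cells in muscle library 1, and 2 of 41 (4.88%) and 9.49% in muscle library 2, and such negative cells held 58.1% and 55.5% of the UMIs of all negative cells. The share of thinned cells with any UMI of the list was 50% in positive and 47.1% in negative cells of muscle library 1 and 41.5% and 44.1% in muscle library 2.

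Cell cycle genes and others made a smaller set. Of 11 cell cycle genes 2 were higher and 0 lower. Stmn1, which destabilises microtubules, was in 5 of 32 Cxcl2-positive cells of muscle library 1 (15.6%) and 3.58% of Cxcl2-negative ones, and in 4 of 41 (9.76%) and 5.97% in muscle library 2, at 5.6-fold (3.54 to 8.65) and 4.62-fold (2.98 to 7.0). Top2a, a topoisomerase of dividing cells, stood at 2.57-fold and 3.33-fold in 3 positive cells of each library, and in muscle library 1 a single cell held 11 of its 13 UMIs. After thinning Top2a was in 0 of 30 Cxcl2-positive cells and 3.40% of Cxcl2-negative cells of muscle library 1, the opposite direction, and in 2 of 41 (4.88%) and 1.86% in muscle library 2. In the muscle libraries 3 positive cells held 69.8% and 68% of the list's UMIs. The count was 1 without the positive cell of each library with most UMIs of the list, 1 in thinned cells and 0 with positive cells set at 2 or more UMIs, and in muscle library 1 alone it was 7, where 14.3% of all genes were higher. Cxcl3, as above, was the 1 other chemokine ligand higher in Cxcl2-positive cells, with 16 and 4 UMIs in positive and negative cells of muscle library 1 and 5 and 1 in muscle library 2. Il12rb1, a subunit of the interleukin 12 receptor, was lower at 0.32 and 0.43, and Satb1, a chromatin organiser of resting T cells, at 0.49 and 0.40. They were the 1 gene called of 8 type 1 genes tested and the 1 of 8 resting lymphoid genes. Of 7 receptors of the ligands, 9 cytotoxic granule genes and 16 tissue Treg genes, 0 were higher and 0 lower.

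**Figure D5:**
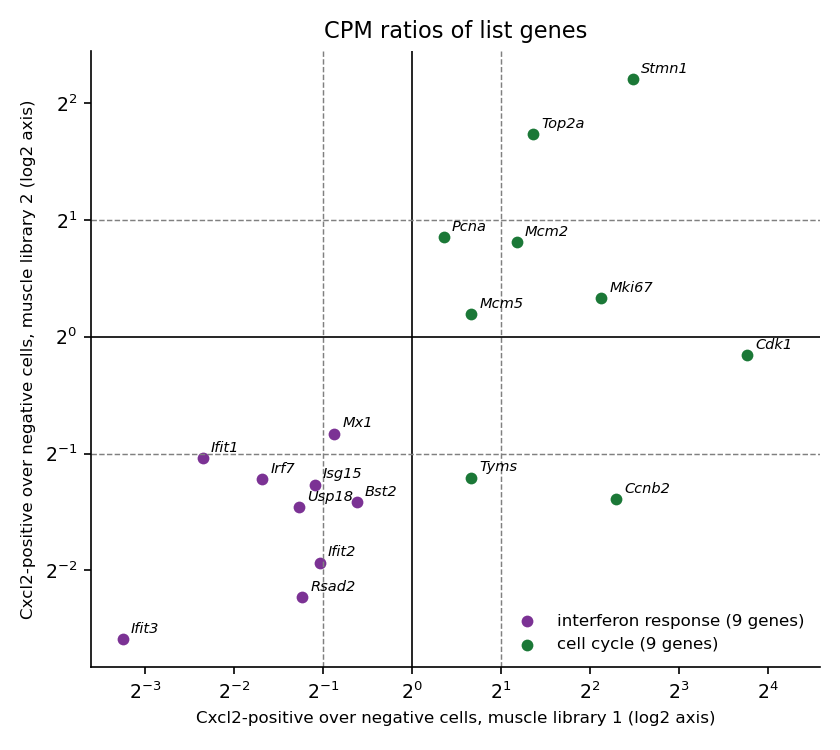
CPM in Cxcl2-positive over Cxcl2-negative cells, muscle library 1 against muscle library 2 on log2 axes, for 9 interferon response genes (purple) and 9 cell cycle genes (green); dashed lines mark 2-fold, and Mx1, with 0 UMIs in positive cells, stands at the ratio its floor of 3 counts gives. Ifit1, Ifit2, Ifit3, Isg15, Irf7, Rsad2 and Usp18 lie in the lower left field and Stmn1 and Top2a in the upper right; Oasl1, Birc5 and Rrm2 have no ratio in at least 1 library.

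By the same ranking as for Ccl5, 1436 genes could be ranked for Cxcl2 and 13 reached 2-fold. The first 5 were N6amt2, Prps2, which makes the sugar phosphate that nucleotide synthesis starts from, Zdhhc21, a palmitoyltransferase, Phf2, a histone demethylase, and Psph, the last enzyme of serine synthesis. Prps2 stood at 3.52-fold (1.82 to 6.35) and 3.34-fold (2.14 to 5.07), from 14 and 29 UMIs in positive cells. Psph stood at 2.56-fold and 3.90-fold, and N6amt2 at 4.66-fold and 3.68-fold. In spleen Prps2 and Zdhhc21 stood at 1.19-fold and 1.15-fold, and the other 3 had 0 UMIs in the 11 positive cells.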

How the data were processed

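Single sorted Tregs of 1 spleen and 2 muscle libraries were measured by inDrops. The authors deposited a table of UMI counts per gene and cell, not normalized; per the submitters' processing notes it rests on mm10, TopHat2 and SAMtools, with no versions, and how UMIs were collapsed, which annotation was used and how cells were filtered is not stated there. Muscle library 1 has 674 cells, muscle library 2 has 694 and spleen 259; Ccl5 had 291, 290 and 117 UMIs and Cxcl2 75, 157 and 49 in that order. Groups follow the library in the cells' labels, every cell was kept, and no doublet caller was run; 12, 7 and 0 cells of muscle library 1, muscle library 2 and spleen exceeded 3 times their library's median and stayed in.

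CPM values are a gene's UMIs, added up over the cells of a library, per 1000000 UMIs of that library. Intervals are exact Poisson for levels, Clopper-Pearson for shares and conditional binomial for folds. A library at 0 took a floor of 3 counts, and no fold is given where both sides are at or under it or the floor would lie above the other side. Genes with about as many UMIs as a member are those within 1.25-fold of it. Cells were thinned to 1000 UMIs (seed 1). A gene was called at 2-fold in both muscle libraries, with at least 50 UMIs over the 3 libraries, or 20 over the 2 muscle libraries where positive and negative cells were compared. No test was run, since each tissue is 1 sample. The rule was run on simulated Poisson counts of summed cells, which do not hold the concentration of a gene in few cells. Values of some genes of the lists are not reported here.

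The 7 genes and the lists were chosen with earlier results of these data known. Named are the 7 genes, up to 6 other chemokine ligands with most UMIs, up to 4 genes of each list with most UMIs, and, for Ccl5 and Cxcl2, the 5 genes with the largest smaller ratio of positive to negative cells, with at least 10 UMIs in, and at least 5 of, the positive cells of each muscle library, leaving out ribosomal and predicted genes; others were named after their values were seen, where the text says so or gives a count of 5 or fewer. Alternatives were scalings by edgeR 4.0.16 and DESeq2 1.42.0 (R 4.3.3), UMI minimums, folds, thinning depths, left-out libraries and left-out cells. Python 3.11.15 with numpy 2.4.6, pandas 2.3.3, scipy 1.17.1 and matplotlib 3.10.9 was used.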

Additional observations from a re-analysis of the deposited data

Results flagged for a closer look

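In Cxcl2-positive over Cxcl2-negative cells, 5 lists went one way in both muscle libraries and the other way in spleen; the difference was not tested, and spleen has 11 such cells. The cytotoxic granule list summed to 0.85-fold in muscle library 1 and 0.95-fold in muscle library 2, against 1.94-fold in spleen. The list of type 1 effector genes, which includes Ccl5, summed to 0.68-fold and 0.88-fold, against 2.21-fold in spleen. The interferon response list summed to 0.51-fold and 0.53-fold, against 1.14-fold in spleen. The markers of CD8 and natural killer cells summed to 0.62-fold and 0.38-fold, against 5.76-fold in spleen, and the T cell markers to 0.72-fold and 0.91-fold, against 1.20-fold in spleen. In the Cxcl2-positive spleen cells, 81.3% of the interferon list's UMIs lay in 3 cells, and the markers of CD8 and natural killer cells summed to 26 UMIs, against 91 in the negative cells. Of those 26, the spleen cell with 4 of the 7 genes held 8 of Gzma and 2 of Nkg7. After thinning, 2 of 11 Cxcl2-positive spleen cells held such a marker, against 7.26% of the negative ones. The part of these cells and markers in the values was not tested.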

How the results depend on the processing

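Only Ccl5 and Cxcl2 have folds under every alternative, and a UMI minimum, a fold threshold or a left-out muscle library cannot change them; over all alternatives the fold over spleen ranged from 1.43 to 1.91 (muscle library 1) and 1.13 to 1.41 (muscle library 2) for Ccl5, and from 0.82 to 1.26 and 1.33 to 1.96 for Cxcl2. The count of members higher in muscle was 1 in place of 0 with a UMI minimum of 10 or with none (Ccl4), and the count lower was 1 with none (Ccl1). Over all genes tested, 7.47% higher and 3.45% lower became 9.19% and 5.64% with a minimum of 10, 5.83% and 1.82% with 200, 6.83% and 5.14% with none, 15.9% and 10.8% at 1.5-fold, 2.93% and 0.945% at 3-fold, and 5.63% and 5.36% with totals free of ribosomal genes; each muscle library alone gave 6.89% to 6.96% lower and 10.3% to 10.9% higher. The share of cells with any of the genes was 16.6% and 16.3% (muscle library 1 and 2) without thinning and 6.33% and 4.37% at 2 or more UMIs, and 13.8% in muscle library 2 thinned to 1500 UMIs. The 7 interferon genes lower in Cxcl2-positive cells became 2 at 2 or more UMIs, 3 in thinned cells and 3 without cells above 3 times the median, and 7 to 8 with 1 muscle library, where 9.97% to 11.6% of all genes were lower, against 1.88%; the 2 cell cycle genes higher became 0, 1 (thinned), 1 (without the cell of each library with most of their UMIs) and 2 to 7 with 1 muscle library, where 11.2% to 14.3% of all genes were higher, against 2.37%; the 2 resting lymphoid genes lower in Ccl5-positive cells became 1 at 2 or more UMIs and 1 in thinned cells. The cause of these shifts was not tested. Alternatives to the split with 1 library, without deep cells, or without the cell with most UMIs, and the one without near-identical pairs, were chosen after seeing the data. No paired analysis was possible because replicate numbers only name cells and no value comes from a test. Depth limits the rare genes most: for 0 UMIs the exact interval reaches 2.41, 1.925 and 3.75 CPM in muscle library 1, muscle library 2 and spleen. The floor of 3 counts used for folds is lower, at 1.96, 1.57 and 3.05 CPM.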

Other observations

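Cxcl10, which is not among the 7 genes, was present in cells with more UMIs of interferon response genes. The list of 11 interferon response genes summed to 3789 CPM in Cxcl10-positive and 1042 CPM in Cxcl10-negative cells of muscle library 1 (3.64-fold, 3.34 to 3.96), to 2554 and 1000 CPM in muscle library 2 (2.55-fold, 2.33 to 2.80) and, in spleen, to 1336 CPM in positive cells (2.61-fold over the negative ones, 2.15 to 3.14). Cxcl10 was the ligand with most UMIs, and its 10 highest cells held 51.4% of its UMIs in muscle library 1, 41.8% in muscle library 2 and 85.2% in spleen. Thinned, Cxcl10 was present in 8.20% of Ccl5-positive cells of muscle library 1, 16.7% of muscle library 2 and 0 of the 13 of spleen, against 9.20%, 7.82% and 4.88% of Ccl5-negative cells.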
